A study of Mus musculus with 4 samples.

Results

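The 31 genes described here are interferon-stimulated genes of the mouse, chosen by name as genes known to be induced by interferon. The choice was made with earlier results of these data known. All 31 were found among the 56793 gene rows of the deposited expression table. RNA abundance was measured in cells sorted by flow cytometry from bone marrow and labelled as megakaryocytes (Mk), the cells that shed platelets. There were 2 libraries from old mice and 2 from young mice, and all 4 carry the genotype label Blc6, with no further allele or treatment named. Age, gate and the number of animals behind a library are missing from the labels, so a p-value here measures no more than the spread among 4 samples, and part of that spread may be technical. Values are TPM, transcript abundances that are corrected for transcript length and scaled to the same total in every library, so that genes can be set beside each other but sequencing depth is unknown.

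Interferons are cytokines released when cells sense viral or misplaced nucleic acid. Type I interferon binds a receptor that activates the kinases Jak1 and Tyk2, and these phosphorylate Stat2, which joins Irf9 in a complex that binds a DNA element named ISRE in the promoters of the induced genes. Type II interferon (interferon gamma) acts through another element, GAS. In marrow, interferon is known to drive blood stem cells into division, and megakaryocytes are known to express some of the induced antiviral genes, among them the IFITM family.

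The ISRE core was searched on both strands as GAAANNGAAA, which reads TTTCNNTTTC on the opposite strand. Promoter windows ran from 250 bases before to 50 bases after each annotated start of a gene (RefSeq, build GRCm38.p6). Some genes, Isg20 and Trim30a among them, had several starts, and a gene was counted if any of its windows held a match. By symbol, 23 of the 31 genes had a window, and the windows of Mx2, Ifi27l2a, Usp18, Ifi204, Mx1, Zbp1, Oas2 and Rtp4 were not analysed here. The core stood in a window of 15 of the 23 genes (65.2%), against 402 of 10395 other expressed genes (3.87%) and 1079 of all 27025 genes with a window (3.99%). In a narrower window of 150 bases before the start it stood in 12 of 23 (52.2%), against 1.87% of other expressed genes and 1.85% of all genes. The GAS letters TTCNNNGAA, which read the same on both strands, stood in 5 of 23 genes (21.7%), namely Bst2, Gbp7, Ifit2, Isg20 and Oas1a, against 8.46% of other expressed genes and 9.55% of all genes. In Bst2 the GAS letters overlap the ISRE core. A match is a description of letters and not a measured binding site, and the genes were listed for their known induction by interferon.

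**Figure D1:**
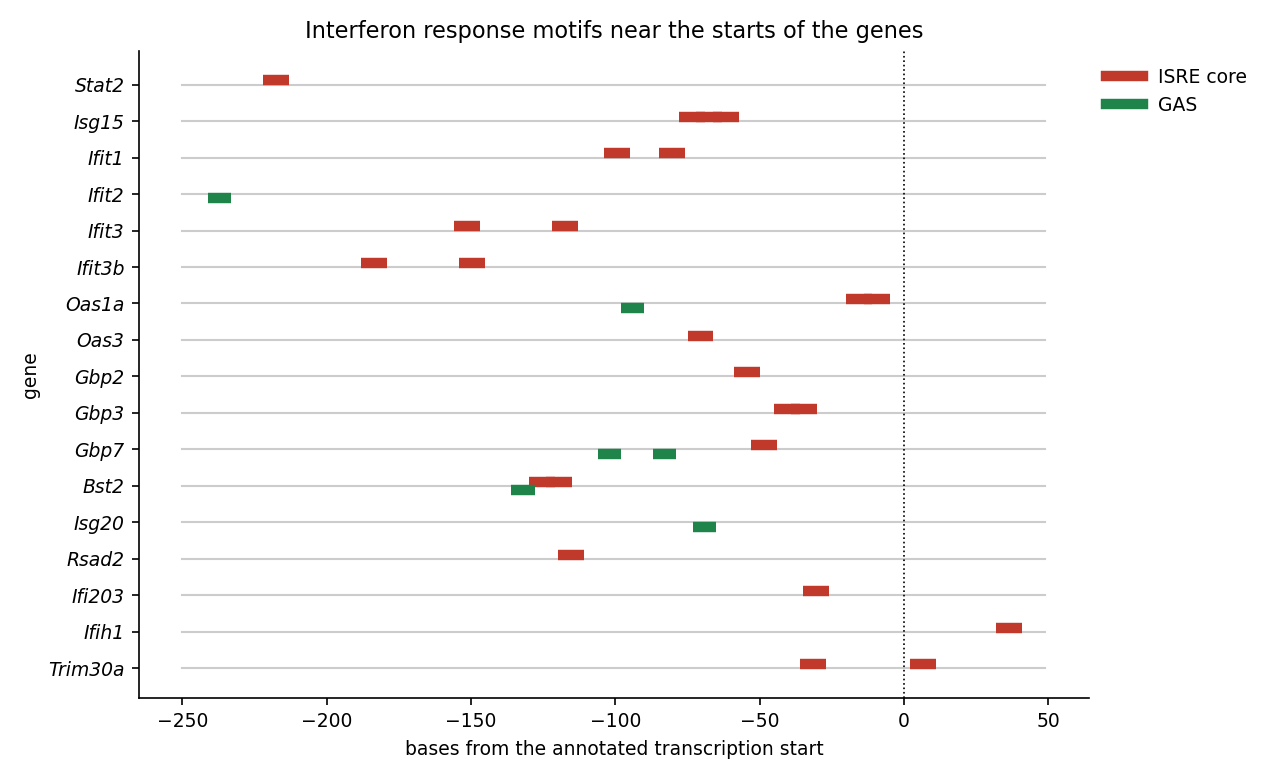
Positions of the ISRE core and the GAS letters in bases from the annotated start (x axis), for those of the 23 genes with a RefSeq window that hold a match, 1 gene a row. Grey lines are the windows, and the windows of a gene with several annotated starts are drawn on the same row. The core stands in a window of 15 of the 23 genes, and in 12 of them within 150 bases before a start.

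The stretches that follow are those of the genes that changed between old and young mice and hold the core, shown to let the element be compared between genes that moved in opposite directions. Capitals mark the ISRE core, and sequences run 5′ to 3′ on the gene's own strand. Isg15 (chr4:156200845-156200926, minus strand) has 3 overlapping cores between 78 and 57 bases before its start. Oas1a (chr5:120907526-120907575, minus strand) and Bst2 (chr8:71537557-71537632, minus strand) have 2 overlapping cores each. Oas3 (chr5:120777695-120777764, minus strand), Rsad2 (chr12:26456533-26456602, minus strand) and Gbp2 (chr3:142620574-142620643, plus strand) have 1 core each, and in Rsad2 and Gbp2 it reads in the opposite direction.
Isg15: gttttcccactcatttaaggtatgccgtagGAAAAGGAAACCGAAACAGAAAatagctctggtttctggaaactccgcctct
Oas1a: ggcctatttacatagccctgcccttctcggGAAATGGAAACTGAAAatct
Bst2: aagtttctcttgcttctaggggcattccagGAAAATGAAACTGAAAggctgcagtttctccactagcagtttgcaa
Oas3: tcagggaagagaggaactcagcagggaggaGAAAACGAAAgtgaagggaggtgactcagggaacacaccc
Rsad2: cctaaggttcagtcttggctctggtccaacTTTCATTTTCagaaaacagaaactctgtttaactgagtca
Gbp2: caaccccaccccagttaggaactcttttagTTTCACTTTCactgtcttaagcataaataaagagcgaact

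The core was not limited to the genes that changed. Of the genes with a window, it stood in 6 of the 8 that changed (Bst2, Gbp2, Isg15, Oas1a, Oas3 and Rsad2) and in 9 of the 15 that did not pass the test (Gbp3, Gbp7, Ifi203, Ifih1, Ifit1, Ifit3, Ifit3b, Stat2 and Trim30a). Gbp2, the gene that rose, and Isg15, Oas1a, Oas3, Rsad2 and Bst2, which fell, all carry it. Irf7 and Isg20 fell and have no ISRE core in their windows.

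All 31 genes averaged 1 TPM or more and were tested. On the log2(TPM + 1) scale, with limma's moderated test across all 16073 genes that reach that mean and an adjusted p threshold of 0.05, 11 of the 31 genes fell in old mice and 1, Gbp2, rose. The genes that fell were Isg15, Usp18, Oas1a, Oas3, Isg20, Rsad2, Bst2, Irf7, Ifi204, Ifi27l2a and Rtp4, by 0.27 to 0.70 on the log2 scale. They make up 35.5% of the list, whereas 14.7% of all tested genes fell, and the gene that rose makes up 3.23%, against 5.2%. Because the list was chosen with earlier results of these data known, these shares are a description and not a test. The median log2 change of the list was -0.22, against -0.10 over all tested genes. Among genes averaging 5 TPM or more, 11 of 29 fell (37.9%), against 23.9% of all genes at that level. Without young replicate 1 or without young replicate 2, 0 of the 31 genes passed limma's adjusted threshold in either direction, and 9 and 10 were lower at an unadjusted p under 0.05 in those fits.

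The scaling of the libraries bears on these values. Immunoglobulin genes took 13.3% and 13.1% of the TPM of the old libraries, against 1.03% and 0.896% in the young ones, and because each library has a fixed total, every other gene takes a smaller share where they take more. With immunoglobulin genes removed and the rest rescaled, 4 of the 31 genes fell (Usp18, Ifi27l2a, Oas1a and Isg20; 12.9%, against 3.15% of all tested genes) and Gbp2 rose (against 8.02% of all tested genes). The median of the list was then -0.03, against 0.07 over all tested genes. Both scales are given below for those of the 31 genes that changed. None of the 12 changed genes turned direction under any scaling that was run. Removing immunoglobulin genes multiplies all other genes of a library by 1 factor, so this is not separate support for each gene. The smallest fall, that of Oas3, went from -0.27 to -0.08 with that removal.

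**Figure D2:**
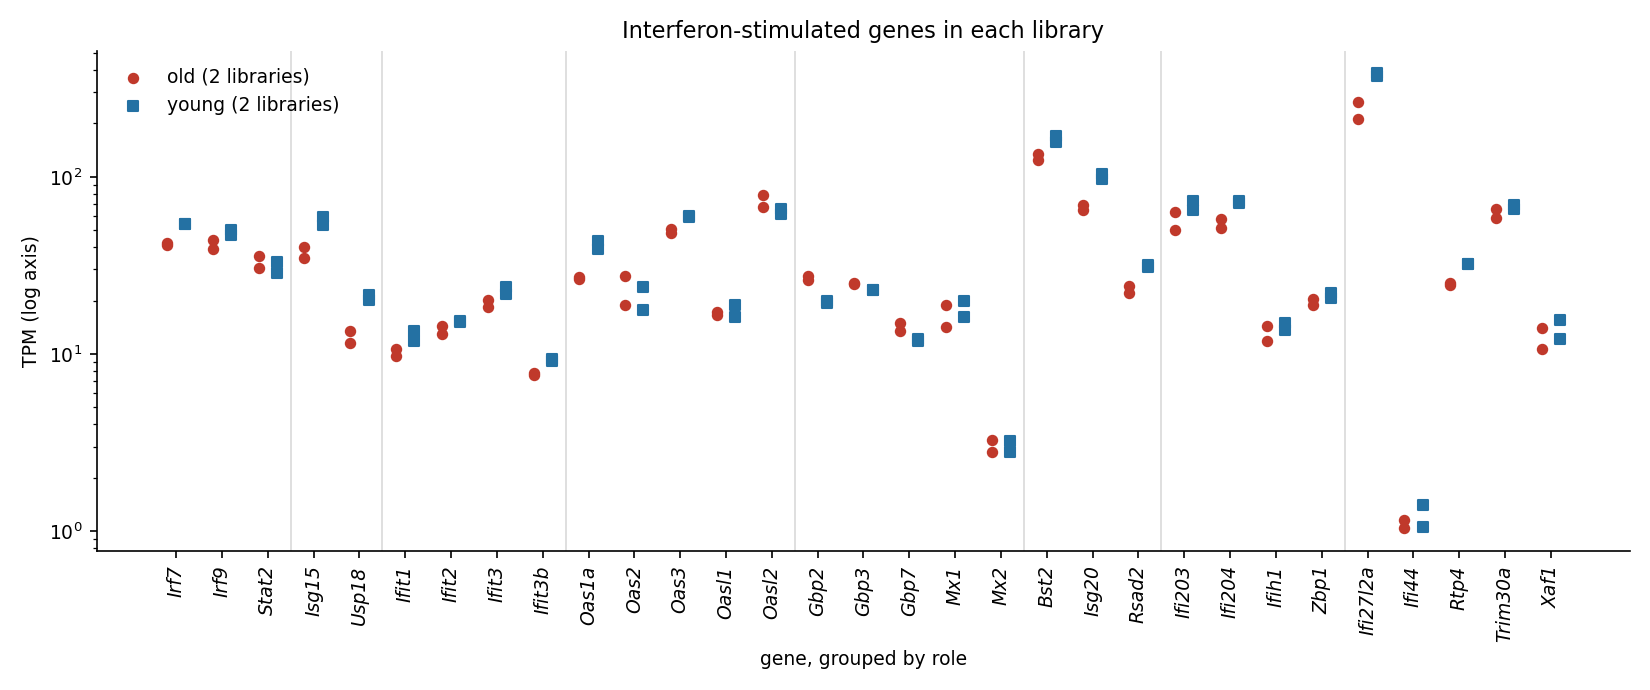
TPM of each of the 31 genes (x axis, grouped by role) in each library, on a log axis, with old and young libraries as separate symbols. Levels run from 1.17 TPM (mean) for Ifi44 to 308 TPM (mean) for Ifi27l2a, and for Isg15, Usp18, Oas1a and Isg20 both old libraries lie below both young ones, while for Gbp2 both lie above.

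Mean levels over the 4 libraries ran from 1.17 TPM for Ifi44 to 308 TPM for Ifi27l2a, with a median of 23.9 TPM, against a median of 14.0 TPM over all tested genes. The 31 genes summed to 1200 and 1188 TPM in old libraries, against 1502 and 1528 TPM in young libraries. An exact two-sided permutation test of that sum gave p = 0.33, the smallest it can give with 2 libraries against 2. Rescaled without immunoglobulin genes, the sums were 1384 and 1367 TPM in old libraries and 1518 and 1541 TPM in young libraries. Ifi27l2a carries much of that difference: without it, and with immunoglobulin genes removed, the other genes summed to 1139 and 1065 TPM in old libraries and 1130 and 1165 TPM in young libraries, and the groups overlapped. In bulk RNA of this kind, fewer cells of a type and less RNA per cell cannot be told apart.

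Of the genes that carry the signal to the nucleus, Irf7 fell and the partners Irf9 and Stat2 did not pass the test. Irf7, the transcription factor that amplifies type I interferon production, had 42.1 and 41.2 TPM in old libraries, against 54.4 and 54.4 TPM in young libraries. Its log2 change was -0.38 (SE 0.06, adjusted p = 0.0236, limma), and -0.19 with an adjusted p of 0.102 when immunoglobulin genes were removed. Irf9, the DNA-binding subunit of the complex that reads the ISRE, had 43.9 and 39.1 TPM in old libraries and 46.9 and 50 TPM in young libraries (log2 change -0.22, adjusted p = 0.119, limma). Stat2, its partner, had 35.9 and 30.5 TPM in old libraries and 28.7 and 32.9 TPM in young libraries, and these overlap (log2 change 0.10, adjusted p = 0.533, limma). Within each library, which needs no scaling between libraries, Stat2 stood at 0.852 and 0.741 of the Irf7 level in old mice, against 0.528 and 0.604 in young mice. Irf9 stood at 1.04 and 0.951 of the Irf7 level in old mice, against 0.863 and 0.919 in young mice. Neither ratio overlapped between the groups, though for Irf9 the closest values were 0.951 in old mice and 0.919 in young mice. These pairs were chosen after the values were seen, with Irf7 already known to have fallen and its partners not to have passed the test. The lack of overlap is thus no separate support, and its share over all pairs of genes was not computed.

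Both genes of the ISG15 system fell. Isg15, a ubiquitin-like protein that is joined to other proteins during the interferon response, had 34.9 and 39.9 TPM in old libraries, against 59.5 and 53.7 TPM in young libraries. Both old libraries were below both young ones, with a log2 change of -0.59 (SE 0.10, adjusted p = 0.0244, limma). Without immunoglobulin genes the change was -0.40 and the adjusted p 0.0501, just over the threshold. Usp18, the protease that takes Isg15 off its targets and also damps signalling at the type I receptor, had 11.5 and 13.5 TPM in old libraries, against 21.6 and 20.1 TPM in young libraries. Its change of -0.70 (SE 0.11, adjusted p = 0.0227, limma) was the largest fall of the 31 genes, and it stood at -0.52 (adjusted p = 0.0389) with immunoglobulin genes removed. Under median-ratio scaling it stood at -0.54 and missed the threshold (adjusted p = 0.0558). The Usp18 level was 0.330 and 0.339 of that of Isg15 in old libraries, against 0.363 and 0.375 in young libraries.

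None of the 4 IFIT genes, whose proteins bind viral RNA or each other, passed the test, with log2 changes from -0.28 to -0.15. For each of them both old libraries were below both young ones, as they were for 46.1% of all tested genes. Ifit1, which recognises RNA caps that lack a methyl group, had 10.7 and 9.68 TPM in old libraries and 11.8 and 13.4 TPM in young libraries (adjusted p = 0.131, limma). Ifit2 had 14.4 and 12.9 TPM in old libraries and 15.2 and 15.4 TPM in young libraries (adjusted p = 0.284, limma). Ifit3 had 20.2 and 18.3 TPM in old libraries and 23.8 and 21.9 TPM in young libraries (adjusted p = 0.123, limma). Its copy Ifit3b had 7.57 and 7.85 TPM in old libraries and 9.10 and 9.34 TPM in young libraries (adjusted p = 0.147, limma). Without immunoglobulin genes their changes lay between -0.10 for Ifit1 and 0.03 for Ifit2.

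Ifit3 and Ifit3b share much of their transcript sequence, so short reads may not separate them, and they also share a promoter stretch. Of the 50-base words in the annotated transcripts (GENCODE M21), 51.2% of those of Ifit3 also occur in Ifit3b, and 44.5% of those of Ifit3b occur in Ifit3. The ratio of Ifit3 to Ifit3b was 2.66 and 2.33 in old libraries and 2.62 and 2.34 in young libraries, so it overlapped between the groups. The stretches around the 2 cores of each gene, printed here to show the shared letters, are 104 bases long and differ at 0 bases (Ifit3, chr19:34583343-34583446, and Ifit3b, chr19:34607739-34607842, both on the plus strand, build GRCm38.p6, with capitals for the ISRE core).
Ifit3: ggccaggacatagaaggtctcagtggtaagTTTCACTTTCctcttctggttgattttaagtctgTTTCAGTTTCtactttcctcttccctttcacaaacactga
Ifit3b: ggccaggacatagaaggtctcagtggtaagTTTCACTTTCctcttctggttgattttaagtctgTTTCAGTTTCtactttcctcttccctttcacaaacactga
In the order of the annotation, Ifit2, Ifit3, Ifit1bl1, Ifit3b, Ifit1bl2 and Ifit1 are neighbours. The paralog Ifit1bl2, which stands between Ifit3b and Ifit1, did pass the test, with 9.86 and 9.65 TPM in old libraries, against 14.4 and 14.4 TPM in young libraries (log2 change -0.52, adjusted p = 0.0247, limma), though not with immunoglobulin genes removed (-0.34, adjusted p = 0.0659).

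The OAS family was split. These proteins make 2′-5′ oligoadenylate on double-stranded RNA, which activates the nuclease RNase L. In the OAS-like proteins the activity is kept in Oasl2, whereas Oasl1 lacks it. Oas1a had 27.2 and 26.5 TPM in old libraries, against 39 and 43.4 TPM in young libraries, with a log2 change of -0.60 (SE 0.08, adjusted p = 0.0190, limma). It was still lower with immunoglobulin genes removed, by -0.41 (adjusted p = 0.0352). Reads of Oas1a may be shared with Oas1g, which holds 57.6% of its 50-base words, and Oas1g itself had 3.62 and 3.47 TPM in old libraries and 4.98 and 4.36 TPM in young libraries (adjusted p = 0.146, limma). Oas3 had 50.5 and 48.2 TPM in old libraries, against 59.8 and 59.6 TPM in young libraries. Its log2 change was -0.27 (SE 0.06, adjusted p = 0.0426, limma) as deposited and -0.08 (adjusted p = 0.414) with immunoglobulin genes removed.

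Oas2, Oasl1 and Oasl2 did not pass the test. Oas2 had 27.5 and 19.0 TPM in old libraries and 17.7 and 23.9 TPM in young libraries, so the groups overlapped (log2 change 0.15, adjusted p = 0.650, limma). Oasl1 had 17.3 and 16.5 TPM in old libraries and 16.1 and 19.0 TPM in young libraries, which also overlap. Oasl2, the most abundant of the family, had 78.6 and 67.4 TPM in old libraries and 61.3 and 65.4 TPM in young libraries. Both old libraries were above both young ones, with a log2 change of 0.20 (adjusted p = 0.183, limma) and of 0.39 (adjusted p = 0.0513) with immunoglobulin genes removed. Ratios within a library, which need no scaling, were taken over Oas1a, the gene of the family with the largest fall. Oasl2 stood at 2.88 and 2.54 times the Oas1a level in old libraries, against 1.57 and 1.51 times in young libraries. For Oas3 the multiples of Oas1a were 1.85 and 1.82 in old libraries and 1.53 and 1.37 in young libraries, and for Oas2 they were 1.01 and 0.716 in old libraries and 0.453 and 0.550 in young libraries. These and the other ratios were chosen after the values were seen, so they restate the changes of the single genes and are no separate support.

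**Figure D3:**
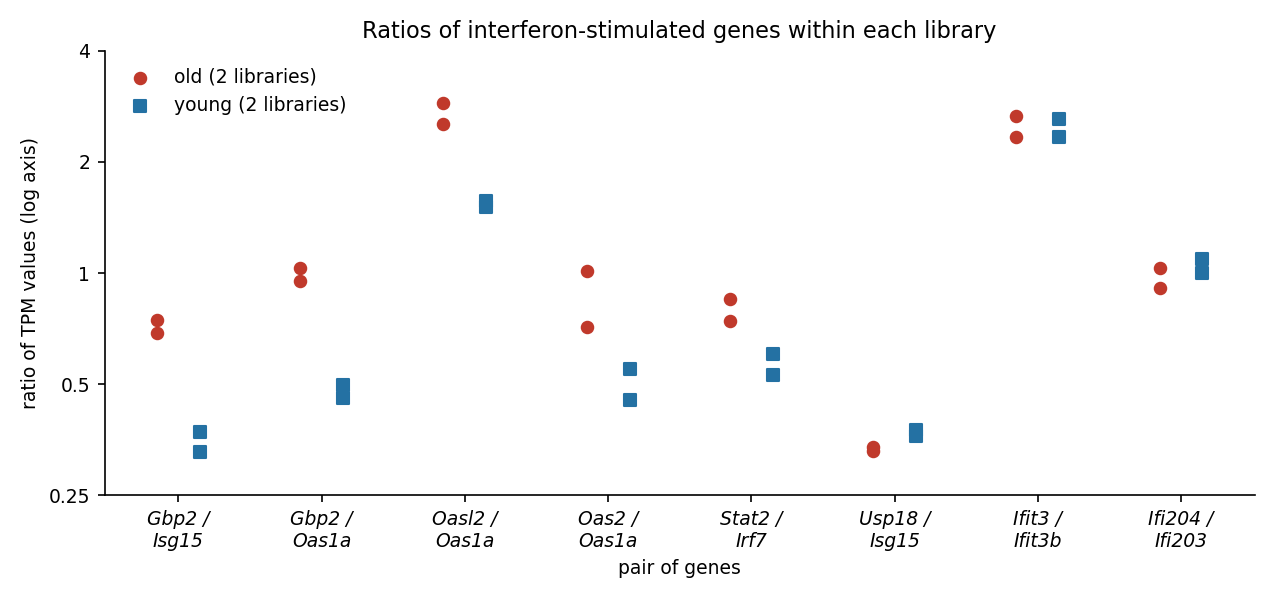
Ratio of the TPM of 2 genes within each library (log axis), for 8 pairs of interferon-stimulated genes (x axis), with old and young libraries as separate symbols. Gbp2 over Isg15 lies at 0.745 and 0.687 in old libraries and 0.327 and 0.371 in young libraries, whereas Ifit3 over Ifit3b overlaps. The pairs were chosen after the values were seen.

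Among the GTPases, Gbp2 rose and the others did not pass the test. Guanylate-binding proteins coat the vacuoles and membranes of intracellular pathogens and are known as targets of interferon gamma in particular. Gbp2 had 26 and 27.4 TPM in old libraries, against 19.4 and 19.9 TPM in young libraries. Its log2 change was 0.42 (SE 0.07, adjusted p = 0.0262, limma) as deposited and 0.61 (adjusted p = 0.0142) with immunoglobulin genes removed. Gbp3 had 24.7 and 25 TPM in old libraries and 23.0 and 23.1 TPM in young libraries (log2 change 0.10, adjusted p = 0.324, limma). Gbp7 had 15 and 13.4 TPM in old libraries and 11.9 and 12.2 TPM in young libraries (log2 change 0.21, adjusted p = 0.163, limma). In all 3 genes both old libraries were above both young ones, as they were for 21.8% of all tested genes. With immunoglobulin genes removed Gbp3 stood at 0.29 (adjusted p = 0.0599) and Gbp7 at 0.39 (adjusted p = 0.0583).

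Gbp7, Gbp3 and Gbp2 lie in 1 cluster, in that order, with Gbp2b before Gbp2. The Gbp2 level was 1.05 and 1.09 times that of Gbp3 in old libraries, against 0.843 and 0.863 times in young libraries. Set against Isg15, Gbp2 stood at 0.745 and 0.687 in old libraries, against 0.327 and 0.371 in young libraries. Set against Oas1a, it stood at 0.954 and 1.03 in old libraries, against 0.498 and 0.459 in young libraries. As Gbp2 rose while Isg15 and Oas1a fell, these ratios restate those changes. The transcripts of the dynamin-like GTPases Mx1 and Mx2 overlapped between the groups. Mx1 had 19.0 and 14.2 TPM in old libraries and 16.1 and 20 TPM in young libraries (adjusted p = 0.643, limma), and Mx2 had 3.27 and 2.80 TPM in old libraries and 2.81 and 3.23 TPM in young libraries (adjusted p = 0.984, limma).

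The 3 further antiviral effectors all fell. Isg20, an exonuclease that degrades RNA, had 65.0 and 69.7 TPM in old libraries, against 97.5 and 104 TPM in young libraries, with a log2 change of -0.57 (SE 0.07). Its adjusted p of 0.0158 (limma) was the smallest of the 31 genes, and the change was -0.39 (adjusted p = 0.0289) with immunoglobulin genes removed. Rsad2 (viperin), which makes a chain-terminating nucleotide, had 24.1 and 22.2 TPM in old libraries, against 31.6 and 30.8 TPM in young libraries. Its change was -0.42 (SE 0.08, adjusted p = 0.0281, limma) as deposited and -0.23 (adjusted p = 0.110) with immunoglobulin genes removed. Cmpk2, the nucleotide kinase next to Rsad2 in the genome, also fell, with 35.6 and 37.0 TPM in old libraries, against 51.0 and 50.7 TPM in young libraries (log2 change -0.48, adjusted p = 0.0181, limma). Bst2 (tetherin), which holds budding virus at the cell surface, had 125 and 134 TPM in old libraries, against 170 and 157 TPM in young libraries. Its change was -0.33 (SE 0.07, adjusted p = 0.0366, limma) as deposited and -0.14 (adjusted p = 0.216) with immunoglobulin genes removed.

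Of the 4 sensors of nucleic acid in the list, Ifi204 fell and the others did not pass the test. Ifi204, a DNA-binding protein of the p200 family, had 58.1 and 51.2 TPM in old libraries, against 71.0 and 73.3 TPM in young libraries (log2 change -0.40, SE 0.08, adjusted p = 0.0344, limma). Without immunoglobulin genes its change was -0.21 (adjusted p = 0.143). Its relative Ifi203 had 63.6 and 49.9 TPM in old libraries and 65.3 and 73.1 TPM in young libraries (log2 change -0.29, adjusted p = 0.175, limma). The ratio of Ifi204 to Ifi203 overlapped, at 0.913 and 1.03 in old libraries and 1.09 and 1.0 in young libraries. Copies of this family share sequence, and 20% of the 50-base words of Ifi204 and 12.2% of those of Ifi203 occur in other genes. Ifih1 (MDA5), the sensor of long double-stranded RNA, had 14.3 and 11.9 TPM in old libraries and 13.6 and 15 TPM in young libraries. Zbp1, the sensor of left-handed nucleic acid that can start cell death, had 20.5 and 18.8 TPM in old libraries and 20.8 and 22.2 TPM in young libraries. Both had adjusted p-values over the threshold (0.479 for Ifih1 and 0.332 for Zbp1, limma).

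Of the remaining genes, Ifi27l2a and Rtp4 fell. Ifi27l2a, a small hydrophobic membrane protein, had 213 and 263 TPM in old libraries, against 383 and 373 TPM in young libraries. Its change was -0.68 (SE 0.11, adjusted p = 0.0240, limma) as deposited and -0.49 (adjusted p = 0.0413) with immunoglobulin genes removed, and under median-ratio scaling it stood at -0.51 and missed the threshold (adjusted p = 0.0743). Its neighbour and relative Ifi27 stood at 83.6 and 86.5 TPM in old libraries and 86.7 and 89.4 TPM in young libraries (log2 change -0.05, adjusted p = 0.568, limma). Rtp4, a chaperone of surface receptors that also restrains viruses, had 25.2 and 24.4 TPM in old libraries, against 32.2 and 32.4 TPM in young libraries (log2 change -0.37, SE 0.07, adjusted p = 0.0282, limma). Its change was -0.19 (adjusted p = 0.142) with immunoglobulin genes removed, and 11.6% of its 50-base words occur in another annotated gene. Trim30a, a ubiquitin ligase that limits inflammatory signalling, had 65.9 and 58.2 TPM in old libraries and 65.7 and 69.4 TPM in young libraries, which overlap. Xaf1, a proapoptotic protein, had 14.0 and 10.7 TPM in old libraries and 12.2 and 15.6 TPM in young libraries, and the sparsely expressed Ifi44 had 1.16 and 1.04 TPM in old libraries and 1.05 and 1.41 TPM in young libraries.

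**Figure D4:**
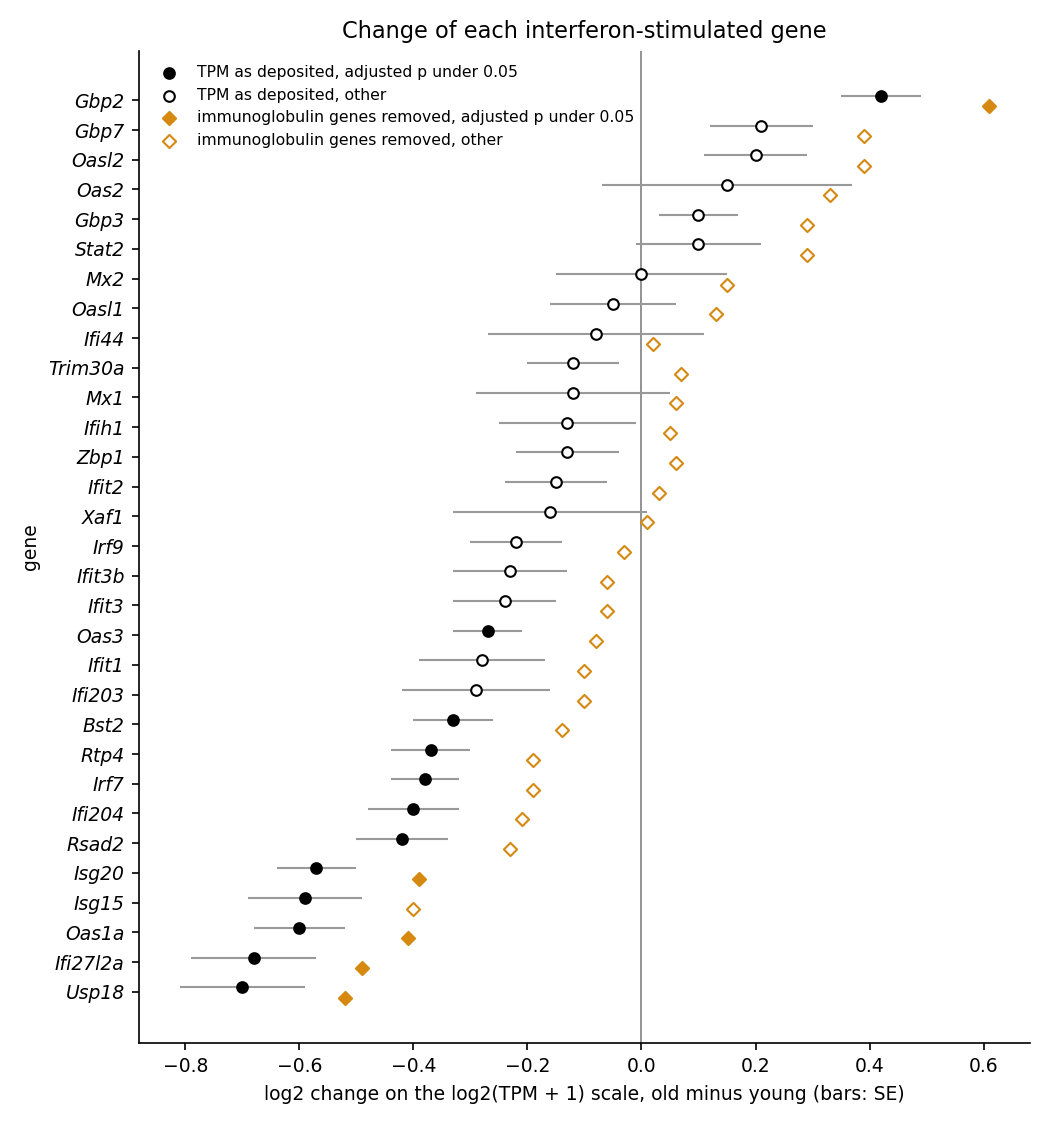
Log2 change of each of the 31 genes on the log2(TPM + 1) scale, old minus young (x axis), for the values as deposited (circles, with bars for the standard error) and with immunoglobulin genes removed (diamonds). Filled points pass an adjusted p of 0.05: 11 lower and 1 higher as deposited, 4 lower and 1 higher with immunoglobulin genes removed.

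Over the list as a whole, 18 genes had both old libraries below both young ones (58.1%, against 46.1% of all tested genes) and 4 had both above (12.9%, against 21.8%). Those 4 were Oasl2, Gbp2, Gbp3 and Gbp7, and the other 9 genes overlapped. The 19 genes that did not pass the test had log2 changes from -0.29 to 0.21 and adjusted p-values from 0.119 to 0.984. In these, the spread between 2 libraries of a group was as large as the difference between the groups for several genes, among them Oas2, Mx1, Xaf1 and Ifih1.

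The authors' deposited table of changed genes lists 1255 genes, of which 728 were lower and 527 higher in old mice, and it holds 3 of the 31 interferon-stimulated genes. Usp18 has a log2 fold change of -0.40 (SE 0.20, adjusted p = 0.0195), Isg20 of -0.39 (SE 0.14, adjusted p = 0.00686) and Oas1a of -0.38 (SE 0.16, adjusted p = 0.0167) in the authors' deposited table. The authors' fold changes come from their own analysis and not from log2(TPM + 1), so their sizes are not compared with the changes above. The same 3 genes also fell in the comparison with immunoglobulin genes removed. The other 9 genes that changed in the TPM values are absent from the authors' deposited table, Gbp2 included. In the authors' deposited table of terms for genes lower in old mice, 17 of 474 terms hold a gene of the list and 0 are named for interferon. In the authors' deposited table for genes higher in old mice, 0 of 211 terms hold a gene of the list. That 0 was fixed beforehand, since all 3 genes of the list among the authors' changed genes were lower. The same 211 terms include 2 named for interferon, both on the regulation of type II interferon production. Their log10 q-values were -1.28 and -0.79, and neither passes a q of 0.05.

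Of 10 interferon genes, 8 were listed at 0 in every library, and none reached a mean of 1 TPM. A value of 0 in this table need not mean that a gene is silent, since Trex1, a broadly expressed DNA exonuclease, is also listed at 0 in all 4 libraries. Ifng, the gene of interferon gamma, had 0.0925 and 0.302 TPM in old libraries and 0.144 and 0.297 TPM in young libraries, and Ifnk had 0.208 and 0.454 TPM in old libraries and was listed at 0 in both young libraries. At these levels no difference could be shown. Of 9 receptor and kinase genes 1 fell (11.1%, against 14.7% of all tested genes). It was Ifngr2, the signalling chain of the interferon gamma receptor, with 46.5 and 45.9 TPM in old libraries, against 55.7 and 59.6 TPM in young libraries (log2 change -0.31, adjusted p = 0.0369, limma). With immunoglobulin genes removed 0 of the 9 passed limma's threshold in either direction (all tested genes 3.15% lower and 8.02% higher), and Ifngr2 stood at -0.12 (adjusted p = 0.256).

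Among the other STAT and IRF genes, 2 of 8 tested fell (25%, against 14.7% of all tested genes) and 2 rose (25%, against 5.2%). Irf1, which drives many targets of interferon gamma, had 121 and 113 TPM in old libraries, against 94.4 and 97.8 TPM in young libraries (log2 change 0.28, adjusted p = 0.0416, limma). Irf4, a factor of plasma cells that is also among the plasma cell markers used here, had 41.3 and 30.5 TPM in old libraries, against 20.5 and 18.8 TPM in young libraries (log2 change 0.82, adjusted p = 0.0290, limma). Irf8, a factor of monocytes and dendritic cells, had 201 and 209 TPM in old libraries, against 259 and 265 TPM in young libraries (log2 change -0.35, adjusted p = 0.0232, limma). Irf5, a factor of inflammatory macrophages, fell by 0.28 (adjusted p = 0.0367, limma). With immunoglobulin genes removed Irf1 and Irf4 remained past the threshold (0.47 and 1.01, adjusted p = 0.0161 and 0.0190), and 0 of the 8 fell. Over all tested genes 8.02% rose and 3.15% fell on that scale.

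Upstream of the interferon genes, 2 of 14 sensors and adaptors fell (14.3%, against 14.7% of all tested genes) and 0 rose. Mavs, the mitochondrial adaptor of the RNA sensors, fell by 0.43 (adjusted p = 0.0282, limma), and Tlr7, an endosomal receptor of single-stranded RNA, by 0.51 (adjusted p = 0.0247, limma). Without immunoglobulin genes they stood at -0.25 and -0.34 and did not pass the threshold, whereas Ikbke, a kinase that activates Irf3 and Irf7, rose (log2 change 0.73, adjusted p = 0.0359). Ikbke had 25.8 and 20.3 TPM in old libraries and 14 and 16.8 TPM in young libraries as deposited (log2 change 0.55, adjusted p = 0.0602, limma). It was the 1 of the 14 that rose with immunoglobulin genes removed, where 8.02% of all tested genes rose. Of 12 negative regulators tested, 2 fell (16.7%, against 14.7% of all tested genes) and 1 rose (8.33%, against 5.2%). Socs3, an inhibitor of cytokine receptor signalling, had 60.4 and 58.1 TPM in old libraries, against 36.6 and 32.7 TPM in young libraries. Its log2 change was 0.76 (adjusted p = 0.0124, limma) as deposited and 0.95 (adjusted p = 0.00495) with immunoglobulin genes removed. Rnaseh2b and Rnaseh2c, subunits of the enzyme that clears RNA from DNA, fell by 0.42 and 0.46 (adjusted p = 0.0387 and 0.0449, limma) as deposited only.

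Among 46 tested genes of a further list of interferon-induced genes, 8 fell (17.4%, against 14.7% of all tested genes) and 1 rose (2.17%, against 5.2%). Their median log2 change was -0.21, against -0.10 over all tested genes. Besides Cmpk2, the genes with the smallest p were Ifitm1, Lgals9 and Slfn5. Ifitm1, a membrane protein that blocks virus entry, rose, with 245 and 236 TPM in old libraries, against 148 and 162 TPM in young libraries (log2 change 0.63, adjusted p = 0.0134, limma). Its relative Ifitm3 fell, with 838 and 908 TPM in old libraries, against 1086 and 1088 TPM in young libraries (log2 change -0.32, adjusted p = 0.0371, limma), but stood at -0.13 (adjusted p = 0.247) with immunoglobulin genes removed. Lgals9, a galectin, had 221 and 232 TPM in old libraries, against 311 and 315 TPM in young libraries (log2 change -0.46, adjusted p = 0.0160, limma). Slfn5, a member of the Schlafen family, fell by 0.52 (adjusted p = 0.0227, limma) as deposited, and stood at -0.34 (adjusted p = 0.0520) with immunoglobulin genes removed. After the removal of immunoglobulin genes 2 of the 46 fell (4.35%, against 3.15% of all tested genes) and 3 rose (against 8.02% of all tested genes). Their median was then -0.02, against 0.07 over all tested genes. Of 19 tested paralogs of the 31 genes, 4 fell (21.1%, against 14.7% of all tested genes), namely Ifi206, Ifi209, Ifi211 and Ifit1bl2. Trim30b rose (5.26%, against 5.2%), and the median was -0.32. With immunoglobulin genes removed Ifi206, Ifi209 and Ifi211 were still lower (15.8%, against 3.15% of all tested genes) and Trim30b still higher (against 8.02% of all tested genes). Ifi206, of the same family as Ifi204, had the largest change of the paralogs that passed as deposited, at -0.83 (adjusted p = 0.0202, limma). It had 4.66 and 4.07 TPM in old libraries, against 8.72 and 8.37 TPM in young libraries.

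**Figure D5:**
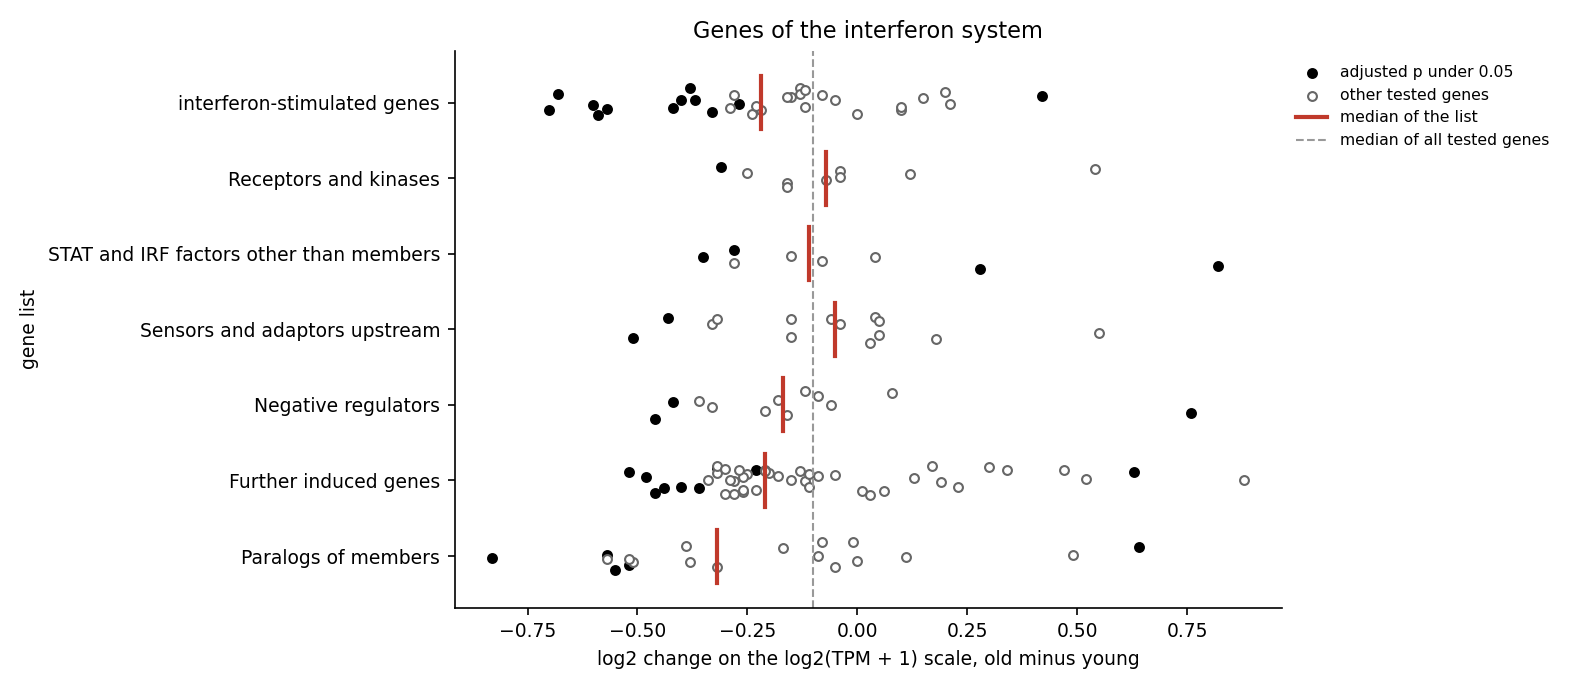
Log2 change on the log2(TPM + 1) scale, old minus young (x axis), of each tested gene in the 31 interferon-stimulated genes and in 6 further lists of the interferon system (rows), as deposited. Filled points pass an adjusted p of 0.05, red bars are list medians and the dashed line is the median of all tested genes at -0.10. The median of the 31 genes lies at -0.22 and that of receptors and kinases at -0.07.

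The interferon-stimulated genes are expressed in many blood cells, and markers of several cell types moved between the groups. For comparison, 14.7% of all tested genes fell and 5.2% rose as deposited. With immunoglobulin genes removed, 3.15% of all tested genes fell and 8.02% rose. Markers of megakaryocytes were present, and their summed TPM was small beside that of neutrophil markers. A few abundant transcripts can carry such a sum, so it does not measure the share of cells. The 12 megakaryocyte markers summed to 918 and 1371 TPM in old libraries, against 1672 and 2196 TPM in young libraries. Of 11 tested, 2 fell as deposited (Itgb3 and Gp5, 18.2%) and 0 with immunoglobulin genes removed (adjusted p = 0.0804 and 0.0747, limma). Gp1bb, at 0.295 and 0.105 TPM in old libraries and 0.251 and 0.302 TPM in young libraries, was too low to be tested. Neutrophil markers (13 genes) reached a sum of 124006 and 123256 TPM in old libraries, against 144970 and 138876 TPM in young libraries. S100a8 and S100a9 made up most of these sums, and S100a9 alone had 51121 and 49829 TPM in old libraries and 59317 and 55649 TPM in young libraries. Of the 13, 1 was higher and 1 lower as deposited (7.69% each), and 5 higher and 0 lower with immunoglobulin genes removed. Of 14 monocyte and macrophage markers 9 fell as deposited (64.3%) and 4 with immunoglobulin genes removed (28.6%). They summed to 11520 and 12382 TPM in old libraries, against 17593 and 15968 TPM in young libraries. Most of that was Lyz2, with 9222 and 9919 TPM in old libraries and 14282 and 12741 TPM in young libraries. Of 10 B cell markers 8 fell (80%), and 7 with immunoglobulin genes removed (70%). Their sums were 301 and 283 TPM in old libraries, against 513 and 463 TPM in young libraries. All 11 erythroid markers fell on both scales, with sums of 3278 and 3795 TPM in old libraries, against 10496 and 10481 TPM in young libraries.

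Plasma cell markers went the other way: 9 of 10 rose on both scales (90%, against 5.2% of all tested genes as deposited). Their sums were 1204 and 1096 TPM in old libraries, against 340 and 313 TPM in young libraries. Markers of plasmacytoid dendritic cells, the cell type best known for making type I interferon, summed to 292 and 293 TPM in old libraries and 273 and 276 TPM in young libraries. As deposited 0 of 8 passed limma's threshold, and with immunoglobulin genes removed 1 rose, Ly6d (log2 change 0.37, adjusted p = 0.0397, limma). Ly6d was also the largest part of each sum, with 155 and 173 TPM in old libraries and 149 and 139 TPM in young libraries. Of 12 T and NK cell markers 1 fell (8.33%, against 14.7% of all tested genes), with sums of 157 and 180 TPM in old libraries and 163 and 175 TPM in young libraries, which overlap. The part of any of these cell types in the values of the interferon-stimulated genes was not tested.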

How the data were processed

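Poly(A) RNA was made into stranded libraries, per the labels' protocols. Per the submitters' processing notes, the tools were Trim Galore, DESeq2, STAR and TopHat and the builds GRCm39 and mm9; the step each served was not given in the sources used here. TPM values are those the authors deposited, and every library sums to 1000000, so depth is unknown and no counting interval is given. For the genes that the authors list as changed, the deposited log2 fold changes, p-values and mean signal of normalized counts were read, and from the deposited term tables the log10 p-values and log10 q-values.

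Genes averaging 1 TPM or more were tested on log2(TPM + 1), a scale that understates the change of low genes. Old and young libraries (2 each) were compared with limma 3.58.1 (R 4.3.3), with a variance trend, two-sided, with Benjamini-Hochberg adjustment over all tested genes and a threshold of 0.05. The script was tested on simulated data. The members and lists were chosen with earlier results of these data known. By rule, every member was accounted for, and up to 4 changed genes with the smallest p were named from each pathway list. Ikbke, Ifitm3, Trex1, Oas1g and Ifi27 were named after their values were seen or beside a relative. Promoter letters came from RefSeq (GRCm38.p6) and shared 50-base words from GENCODE M21, matched by symbol, and neither was used with coordinates of the deposited files. Alternatives were other pseudocounts, filters, scalings, variance models and thresholds, a replicate block and each library left out. A median ratio over tested genes, removal of immunoglobulin, haemoglobin and mitochondrial genes together and a crossed block were chosen after seeing the data. Figures were drawn with matplotlib 3.10.9. A gene of the pathway lists is not reported here.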

Additional observations from a re-analysis of the deposited data

How the results depend on the processing

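As deposited, 11 of the 31 genes fell and 1 rose, out of 2369 genes that fell and 835 that rose in all. With median-ratio scaling 2 fell, Isg20 and Oas1a (all genes 490), with immunoglobulin genes removed 4 (all genes 508 lower and 1295 higher), with quantile normalization 6 (all genes 1289), with a median ratio over tested genes 2 (all genes 681), and with immunoglobulin, haemoglobin and mitochondrial genes removed 5 (all genes 515). With no filter on low values 0 fell and 0 rose (limma; 13 and 1 at an unadjusted p under 0.05; all genes 59 and 71), and without a variance trend 0 fell and 0 rose (12 and 1 unadjusted; all genes 263 and 309). A pseudocount of 0.1, a minimum of 5 TPM and a threshold of 0.1 left 11 lower and 1 higher. Leaving out 1 library gave 0 to 9 lower and 0 to 1 higher (all genes 98 to 1766 lower and 255 to 734 higher), with 0 and 0 without either young library, 9 and 1 without old replicate 1 and 7 and 0 without old replicate 2. The lone library of a group was assumed to vary like the others. None of the 12 changed genes turned direction under these alternatives, but most of them could not have shown a turn. In each of these genes both old libraries lay on the same side of both young ones, so leaving out 1 library cannot turn it. A filter, a variance model, a block or a threshold leaves the log2 change itself as it was.

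The replicate numbers are not stated to pair libraries, and deviations of same-numbered libraries correlated at -0.146 across 16073 genes. With the replicate block 5 of the 31 genes fell and 0 rose (11 and 1 at an unadjusted p under 0.05), with 756 lower and 496 higher over all genes. With the numbers crossed, a pairing chosen after seeing the data, 12 fell and 1 rose, with 3151 lower and 1498 higher over all genes.

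Directions turned only for genes that had not passed the test. With median-ratio scaling, log2 changes became 0.0026 for Ifit2, 0.11 for Oasl1, 0.03 for Mx1, Ifih1 and Zbp1, 0.0032 for Ifi44 and 0.04 for Trim30a. With immunoglobulin genes removed they became 0.03 for Ifit2, 0.13 for Oasl1, 0.06 for Mx1 and Zbp1, 0.02 for Ifi44, 0.05 for Ifih1, 0.01 for Xaf1 and 0.07 for Trim30a. With haemoglobin and mitochondrial genes removed as well, they became 0.02 for Ifit2, 0.12 for Oasl1, 0.05 for Mx1 and Zbp1, 0.01 for Ifi44, 0.04 for Ifih1, 0.0046 for Xaf1 and 0.06 for Trim30a. Quantile normalization gave 0.03 for Oasl1 and -0.12 for Mx2, and a median ratio over tested genes 0.06 for Oasl1. Leaving out 1 library moved Stat2 between -0.01 and 0.22, Oas2 between -0.11 and 0.41, Oasl1 between -0.16 and 0.06, Mx1 between -0.32 and 0.08, Mx2 between -0.08 and 0.09, Ifi44 between -0.20 and 0.03 and Xaf1 between -0.35 and 0.02. The causes of these shifts were not tested. With 2 libraries a group and depth unknown, small changes of these genes could not be resolved.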
